A study of Mus musculus with 8 samples.

Results

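The transcription factors that set hepatocyte identity were followed in livers obstructed by bile duct ligation. The set comprised 9 genes, Hnf4a, Cebpa, Cebpb, Foxa1, Foxa2, Foxa3, Onecut1, Onecut2 and Prox1, chosen by gene name out of 53816 gene IDs. All 9 were listed once in every library and all 9 passed a filter that required 1 TPM or more on average (TPM is StringTie's transcript abundance, scaled for length and to one fixed sum per library), as did 13055 genes in all. RNA had been extracted from whole liver of 4 mice with the genotype label LSEC Myc overexpression (Myc, a growth-promoting transcription factor, raised in liver sinusoidal endothelial cells) and 4 mice with the genotype label WT. Both groups had undergone bile duct ligation, in which the common duct is tied so that bile backs up and injures the liver, and no unoperated liver was analysed here. How Myc was overexpressed, the time after surgery, age and sex were not given in those labels.

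Hepatocyte identity is held by a small circuit of DNA-binding proteins that bind one another's genes as well as the liver genes they serve. HNF4A, a nuclear receptor, is its central activator. The C/EBP proteins divide the work between metabolic genes (C/EBP alpha) and the acute phase and proliferative response (C/EBP beta). FOXA proteins open closed chromatin, and the ONECUT proteins and PROX1 act early, when hepatoblasts part into hepatocytes and bile duct cells. ONECUT1, FOXA1 and FOXA2 also occur in bile duct epithelium, and PROX1 marks lymphatic endothelium.

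Because the circuit is built on mutual binding, the start regions of the members were searched for short motif letters, in RefSeq promoter windows (GRCm38.p6) of 300 bases, 250 of them before the start. Windows were found for 8 of the 9 genes, 12 windows in all; Onecut2 was not among them. The ONECUT letters ATCAAT, on either strand, lay in 2 of the 12 windows, against 7.54% of all 32851 windows. The 2 stretches are shown because they hold that motif ahead of 2 other members, Hnf4a at its upstream start and Foxa2, with the match in capitals (for Foxa2 as the reverse complement ATTGAT), each read 5′ to 3′ along the gene's strand. The Hnf4a stretch lies at chr2:163506771-163506830, plus strand, with the match 59 to 54 bases before the RefSeq start. The window at the downstream Hnf4a start (chr2:163546905-163547204) held no such match. Which of the 2 Hnf4a starts was in use in these livers was not told apart, so the printed stretch may not be the active one. The Foxa2 stretch lies at chr2:148047150-148047209, minus strand, with the match 213 to 208 bases before the most upstream of its RefSeq starts. The windows at the other Foxa2 starts (chr2:148045899-148046198 and chr2:148045415-148045714) held no such match.
Hnf4a: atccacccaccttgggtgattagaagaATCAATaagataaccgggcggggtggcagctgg
Foxa2: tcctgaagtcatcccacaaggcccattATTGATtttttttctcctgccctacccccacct

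The FOXA letters TGTTTAC lay in 1 window, of Foxa1 (3.65% of all windows), and TGTTTGC in 1 window, of Prox1 (5.07% of all windows). The HNF4 letters CAAAGTCCA and the C/EBP letters TTGCGCAA lay in 0 of the 12 windows, against 0.475% and 0.183% of all windows. A match describes letters and is not a measured binding site. The 4 matches lie in 4 different genes, so none overlaps another.

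Aligned bases, derived from the ratio of coverage to FPKM, ranged from 5.29 to 6.74 Gb per library. The label could not be checked on Myc itself: it stood at 339, 356, 25.6 and 249 TPM in the Myc-labelled replicates 1 to 4, against 272, 207, 554 and 89.2 TPM in the controls, so the lowest value lay in a library labelled Myc. The sources do not say whether RNA from an added Myc copy would map there, and every direction below rests on the labels. Myc-labelled replicate 3 also stood apart in that its 100 most abundant genes took 62.7% of TPM, against 49.7% to 55.8% in the other 7 libraries. Mitochondrially encoded genes took 10.0% to 11.2% of TPM in the Myc-labelled libraries, against 7.73% to 9.60% in the controls, 2 ranges that do not overlap. Liver identity was clear from Alb, at 51802 ± 14376 TPM in Myc-labelled libraries and 63674 ± 23630 TPM in controls (SD, n = 4 each), whereas 5 of 6 pancreatic acinar markers were listed at 0 in every library.

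Transcript levels of the 9 factors differed widely, with every one of them above 0 in every library. Averaged over the 8 libraries, Cebpb stood at 299 TPM and Hnf4a at 272 TPM, followed by Cebpa at 129 TPM. Foxa3 averaged 39.6 TPM, Prox1 24.5 TPM and Foxa2 20.6 TPM. Foxa1 averaged 5.85 TPM, Onecut2 5.39 TPM and Onecut1 2.99 TPM. TPM is a level per transcript length, but the order of genes depends on the measure: the deposited coverage, also a level per base, was 0.479 to 0.481 times what FPKM implies for Hnf4a and 0.133 to 0.148 times for Onecut1, against at least 0.847 times for the other 7 members. The order is therefore given by TPM and then by coverage.

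Neighbours in that order were compared within libraries by an exact sign permutation of the paired log2 TPM differences, two-sided. P-values were adjusted over the 8 neighbouring pairs. This comparison was not among the planned tests, and the pairs and their direction were taken from the same 8 libraries. The p-values therefore describe how steadily the order held across these libraries and are no independent test of it. By TPM, Hnf4a was higher than Cebpa, Cebpa than Foxa3, Foxa3 than Prox1 and Foxa2 than Foxa1 in 8 of 8 libraries (adjusted exact p = 0.0156 for each; 0.00781 is the smallest unadjusted p that 8 libraries allow). Onecut2 was higher than Onecut1 in 7 of 8 libraries (adjusted exact p = 0.025). Cebpb was above Hnf4a in 5 of 8 libraries (adjusted exact p = 0.58), Prox1 above Foxa2 in 7 of 8 (adjusted exact p = 0.0729) and Foxa1 above Onecut2 in 4 of 8 (adjusted exact p = 0.703). By TPM these last 3 neighbours did not differ beyond their spread. By coverage, an alternative chosen after seeing the data, Cebpb was above Hnf4a in 8 of 8 libraries (2.26-fold, adjusted exact p = 0.0125), while Hnf4a was above Cebpa in only 4 of 8 (adjusted exact p = 0.955). Prox1 was above Foxa2 in 7 of 8 libraries by coverage (adjusted exact p = 0.0417), and Onecut2 above Onecut1 in 8 of 8 (14.8-fold, adjusted exact p = 0.0125). The steps from Cebpa to Foxa3, Foxa3 to Prox1, Foxa2 to Foxa1 and Onecut2 to Onecut1 were passed by both measures. Foxa1 against Onecut2 was passed by neither (4 of 8 by coverage, adjusted exact p = 0.992).

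**Figure D1:**
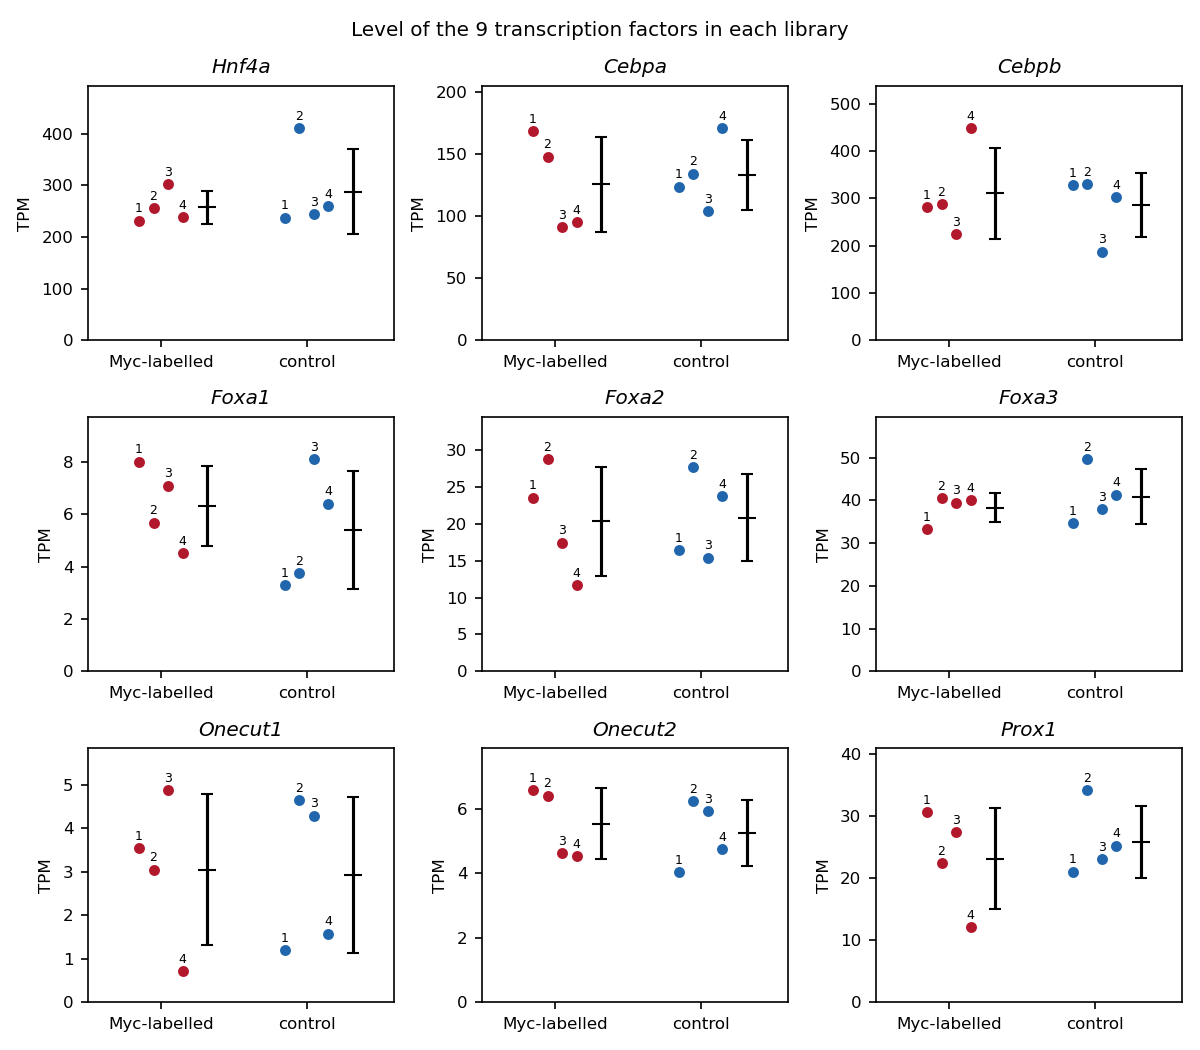
TPM of each transcription factor in the 4 Myc-labelled (left) and 4 control (right) libraries, numbered by replicate, with a bar for the mean and SD of 4 libraries. The groups overlap in all 9 panels, control replicate 2 stands alone for Hnf4a at 410.1 TPM, and Myc-labelled replicate 4 has the lowest Foxa2, Onecut1 and Prox1.

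Between the groups, no member differed by more than the spread between libraries. In limma's test on log2(TPM + 1), adjusted over all 13055 genes by the Benjamini-Hochberg method, 0 of 9 members passed an adjusted p of 0.05, against 0.0% of all genes. At an unadjusted p under 0.05 the count was again 0 of 9, against 1.86% of genes (243, with 165 on the higher side and 78 on the lower side in Myc-labelled livers). The groups did not overlap in 0 of 9 members, against 1.26% of genes. Of the 9 log2 differences 4 were above 0 and 5 below, with a median of -0.06. Of all genes tested 57.99% were above 0, with a median of 0.04, and the sign counts of gene lists below stand beside that share.

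**Figure D2:**
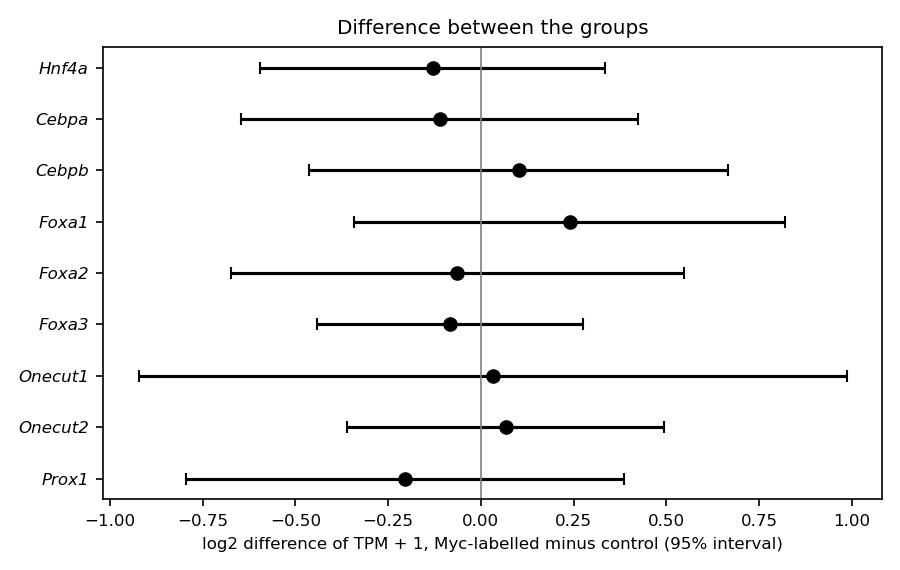
Log2 difference of TPM + 1, Myc-labelled minus control, for each transcription factor, with its 95% interval from limma. All 9 intervals cover 0, the narrowest being that of Foxa3 (-0.44 to 0.27) and the widest that of Onecut1 (-0.92 to 0.99).

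Hnf4a (ENSMUSG00000017950.16, mm10 chromosome 2, 163506808 to 163572910, plus strand) encodes the nuclear receptor at the head of the circuit. It stood at 232, 255.9, 302 and 239 TPM in Myc-labelled replicates 1 to 4, against 237, 410.1, 244 and 259 TPM in control replicates 1 to 4. Control replicate 2 was the highest of the 8 at 1.68 times the median of the others, and the remaining values of both groups overlapped. The mean was 257 ± 31.7 TPM in Myc-labelled livers and 288 ± 82.2 TPM in controls (SD, n = 4 each). On the log2(TPM + 1) scale the groups differed by -0.13 ± 0.21 (SE; 95% interval from -0.60 to 0.34), which did not pass (adjusted p = 0.9998 by limma; p = 0.6 by exact permutation). Without control replicate 2 it was 0.05, so the sign of the difference is set by that library. Deposited values were per gene, so the transcripts from the 2 Hnf4a starts were not told apart. The antisense gene Hnf4aos overlaps 34913 bases of the locus at 3.02 to 9.50 TPM.

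Cebpa (ENSMUSG00000034957.10, chromosome 7, 35119293 to 35121928) and Cebpb (ENSMUSG00000056501.3, chromosome 2, 167688915 to 167690418) encode the pair of leucine zipper proteins that bind one motif. Cebpa measured 168, 148, 90.8 and 95.1 TPM in the Myc-labelled livers and 123, 134, 104 and 170.4 TPM in the controls. Its lowest 2 values were Myc-labelled replicates 3 and 4, while replicate 1 of that group nearly equalled the highest control. Cebpb measured 282, 287, 224 and 448 TPM in the Myc-labelled livers, against 328, 331, 187 and 302 TPM in the controls. Both extremes were single libraries, Myc-labelled replicate 4 at the top and control replicate 3 at the bottom. Cebpa averaged 125 ± 38.4 TPM in Myc-labelled livers and 133 ± 27.9 TPM in controls, and Cebpb 310.3 ± 96.0 TPM and 287 ± 67.6 TPM in the same order (SD, n = 4 each). The log2 difference was -0.11 ± 0.24 for Cebpa (95% interval -0.65 to 0.42) and 0.10 ± 0.26 for Cebpb (95% interval -0.46 to 0.67), each with a limma adjusted p of 0.9998.

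The Cebpb locus overlaps Tmem189 on the opposite strand over 908 bases, and the use of strand in counting is not given. Tmem189 stood at 21.3, 11.8, 43.2 and 10.8 TPM in Myc-labelled replicates 1 to 4, against 12.0, 24.0, 11.5 and 12.6 TPM in the controls. It was highest in Myc-labelled replicate 3, where Cebpb was low, and lowest in replicate 4 of that group, where Cebpb was highest. In control replicate 3, where Cebpb was lowest, Tmem189 was also low. Its part in the Cebpb values was not tested.

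C/EBP beta is known to replace C/EBP alpha in acutely stimulated hepatocytes, so the ratio of the 2 transcripts was taken in each library. Cebpb exceeded Cebpa 1.68, 1.94, 2.47 and 4.71 times in Myc-labelled replicates 1 to 4, against 2.65, 2.47, 1.80 and 1.77 times in the controls. Myc-labelled replicate 4 was the highest, while the other 7 libraries lay between 1.68 and 2.65. The log2 ratio averaged 1.31 ± 0.66 in Myc-labelled livers and 1.10 ± 0.30 in controls (SD, n = 4 each; exact permutation p = 0.657, two-sided, 0.0286 being the smallest p that 70 assignments allow). Without Myc-labelled replicate 4 the difference was -0.09 in place of 0.21.

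Foxa1 (ENSMUSG00000035451.7, chromosome 12, 57540628 to 57546916), Foxa2 (ENSMUSG00000037025.11, chromosome 2, 148042877 to 148046969) and Foxa3 (ENSMUSG00000040891.6, chromosome 7, 19013284 to 19023538) encode the forkhead pioneer factors. Foxa3 was the steadiest member, at 33.2, 40.5, 39.5 and 40.03 TPM in Myc-labelled livers against 34.7, 49.6, 37.9 and 41.3 TPM in controls. Its coefficient of variation over the 8 libraries was 12.5%, where genes within 2-fold of its level had a median of 18.5%. Foxa2 stood at 23.5, 28.7, 17.4 and 11.6 TPM in the Myc-labelled livers and 16.4, 27.7, 15.4 and 23.8 TPM in the controls. Each group held both high and low libraries, and the lowest value, Myc-labelled replicate 4, was 0.495 times the median of the other 7. Foxa1 stood at 7.99, 5.67, 7.08 and 4.50 TPM in the Myc-labelled livers, against 3.30, 3.76, 8.09 and 6.40 TPM in the controls. Its log2 difference was 0.24 ± 0.26 (SE; 95% interval -0.34 to 0.82; adjusted p = 0.9998 by limma and p = 0.429 by exact permutation), and 0.0097 with array weights. Foxa1 averaged 6.31 ± 1.54 TPM in Myc-labelled livers and 5.39 ± 2.26 TPM in controls (SD, n = 4 each). The highest Foxa1 value nevertheless lay among the controls, in replicate 3. Log2 differences of Foxa2 and Foxa3 were -0.06 ± 0.28 (95% interval -0.67 to 0.55) and -0.08 ± 0.16 (95% interval -0.44 to 0.27).

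Of the summed FOXA transcripts, Foxa3 made up 51.3%, 54.1%, 61.7% and 71.3% in Myc-labelled replicates 1 to 4, against 63.8%, 61.2%, 61.8% and 57.8% in the controls. Foxa3 was therefore the main FOXA transcript in every liver, and the Myc-labelled libraries lay on both sides of the controls. The mean share was 59.6% ± 8.92 in Myc-labelled livers and 61.1% ± 2.48 in controls (SD, n = 4 each; exact permutation p = 0.8, two-sided).

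Onecut1 (ENSMUSG00000043013.10, chromosome 9, 74861921 to 74891781), the gene of hepatocyte nuclear factor 6, was the lowest and most variable member by TPM. It stood at 3.55, 3.05, 4.87 and 0.711 TPM in Myc-labelled livers and 1.204, 4.64, 4.30 and 1.58 TPM in controls. The highest and the lowest value were both Myc-labelled libraries, 6.85-fold apart, and the controls split into 2 high and 2 low ones. Its coefficient of variation was 54.6%, higher than in 87.4% of the genes within 2-fold of its level. Its deposited coverage was only 0.333 to 2.34, against at least 9.85 for every other member. The part of counting error in this spread and in the Onecut1 coefficients below was not tested. The groups differed by 0.03 ± 0.43 on the log2 scale (95% interval -0.92 to 0.99), so this spread leaves room for a sizeable difference in either direction. The noncoding gene Gm20649 overlaps 29556 bases of the locus on the same strand, at 0 to 3.07 TPM, and how reads were divided between them was not tested.

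Onecut2 (ENSMUSG00000045991.19, chromosome 18, 64340020 to 64400987), a paralogue that shares the cut domain and homeodomain, kept to a narrower range. It stood at 6.57, 6.40, 4.63 and 4.54 TPM in Myc-labelled livers and 4.04, 6.23, 5.93 and 4.75 TPM in controls. Both groups held 2 higher and 2 lower libraries (log2 difference 0.07 ± 0.19, 95% interval -0.36 to 0.49). By TPM, Onecut2 exceeded Onecut1 in all but Myc-labelled replicate 3, and in replicate 4 of that group by 6.38 times. By coverage it exceeded Onecut1 in all 8 libraries, by 6.57 times in Myc-labelled replicate 3 and 43.2 times in replicate 4.

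Prox1 (ENSMUSG00000010175.13, chromosome 1, 190118035 to 190170714) encodes a homeodomain protein that drives hepatoblast migration and represses bile acid synthesis genes. It stood at 30.6, 22.4, 27.4 and 12.1 TPM in Myc-labelled livers and 21.0, 34.1, 23.1 and 25.2 TPM in controls. Prox1 averaged 23.1 ± 8.08 TPM in Myc-labelled livers and 25.8 ± 5.75 TPM in controls (SD, n = 4 each). Myc-labelled replicate 4 lay below all others at 0.481 times their median, while the other 7 libraries of both groups overlapped. The log2 difference was -0.21 ± 0.27 (95% interval -0.80 to 0.38; adjusted p = 0.9998 by limma), and without that library it was 0.06. In whole tissue, fewer cells of a type and less RNA per cell cannot be told apart. Since lymphatic endothelium also carries Prox1, its markers were read beside it: Pdpn and Flt4 passed the filter, Mmrn1 and Ccl21a did not, and their summed level was 5.27 to 10.4 TPM in Myc-labelled livers and 5.32 to 9.35 TPM in controls. Their part in the Prox1 values was not tested. Prox1os, antisense to the start of the gene over 419 bases, ranged from 6.77 to 41.5 TPM.

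Libraries departed from the mean in different members rather than in all at once. Control replicate 2 held the highest value of Hnf4a, Foxa3 and Prox1, and Myc-labelled replicate 4 held the lowest value of Foxa2, Onecut1 and Prox1 together with the highest of Cebpb. Myc-labelled replicate 1 was lowest for Hnf4a and Foxa3 and highest for Onecut2.

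**Figure D3:**
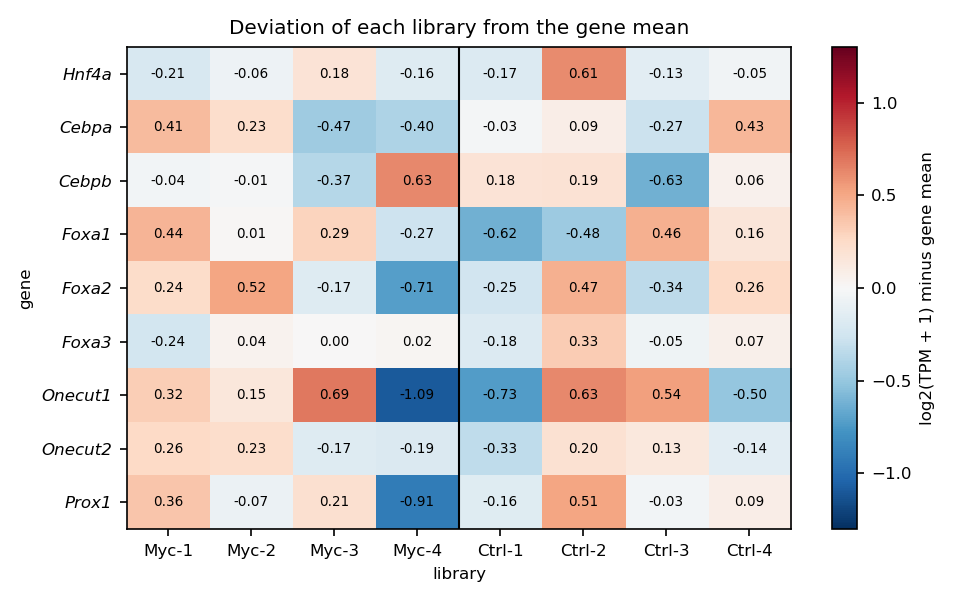
Deviation of log2(TPM + 1) from the gene's mean over 8 libraries, one row per transcription factor, with the 4 Myc-labelled libraries left of the line and the 4 controls right of it. Myc-labelled replicate 4 is low for Onecut1 (-1.09), Prox1 (-0.91) and Foxa2 (-0.71), and control replicate 2 is high for Hnf4a (0.61).

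Co-variation was measured over the 8 libraries for all 36 pairs of members, with exact permutation p-values adjusted over the 36. No pair passed an adjusted p of 0.05 by Pearson's r or by Spearman's rho. At an unadjusted exact p under 0.05 there were 6 pairs by Pearson's r. An r of that size (0.703 or beyond, either sign) was reached by 16.7% of member pairs, against 9.04% of all pairs among the 13055 genes. The median r was 0.22 over the members and 0.19 over all gene pairs. Genes within one library are not independent, so these shares are descriptions.

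Hnf4a and Foxa3, the receptor and the most abundant FOXA gene, had the largest coefficient, r = 0.84 and rho = 0.81 (exact permutation p = 0.00804 and 0.0218, adjusted 0.189 and 0.335). Control replicate 2 was the highest library for both genes, and without it r was 0.54. Without control replicate 2 and Myc-labelled replicate 3, the 2 libraries farthest from the Hnf4a median, r was 0.83, and without the 2 farthest from the Foxa3 median it was 0.39. Onecut1 and Prox1 had r = 0.78 and rho = 0.79 (exact permutation p = 0.0105 and 0.0279, adjusted 0.189 and 0.335). Without Myc-labelled replicate 4 and control replicate 1, the 2 libraries farthest from the Onecut1 median, r was 0.36, so that relation rested on those libraries. Foxa2 and Prox1 had r = 0.74 and rho = 0.52 (exact permutation p = 0.0252 and 0.197, adjusted 0.228 and 0.602); r was 0.81 without the 2 libraries farthest from the Foxa2 median and 0.22 without those farthest from the Prox1 median. Cebpa and Foxa2 had r = 0.78 and rho = 0.67 (exact permutation p = 0.0316 and 0.0831, adjusted 0.228 and 0.602), and r = 0.70 without Myc-labelled replicates 3 and 4.

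Cebpb had both negative coefficients among the 6 pairs. Against Onecut1 its r was -0.74 and rho -0.60 (exact permutation p = 0.0313 and 0.132, adjusted 0.228 and 0.602), with r = -0.51 once control replicate 3 and Myc-labelled replicate 4 were left out. Against Foxa1 its r was -0.70 and rho -0.86 (exact permutation p = 0.0489 and 0.0107, adjusted 0.293 and 0.335), with r = -0.72 without the same 2 libraries. Removing the group means left these 6 coefficients at 0.75 to 0.83 for the positive pairs, -0.75 for Cebpb with Onecut1 and -0.79 for Cebpb with Foxa1. Within families the coefficients were smaller: 0.12 for Cebpa with Cebpb, 0.06 for Foxa1 with Foxa2, 0.34 for Foxa2 with Foxa3, -0.34 for Foxa1 with Foxa3 and 0.65 for Onecut1 with Onecut2, none with an unadjusted exact permutation p under 0.05.

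**Figure D4:**
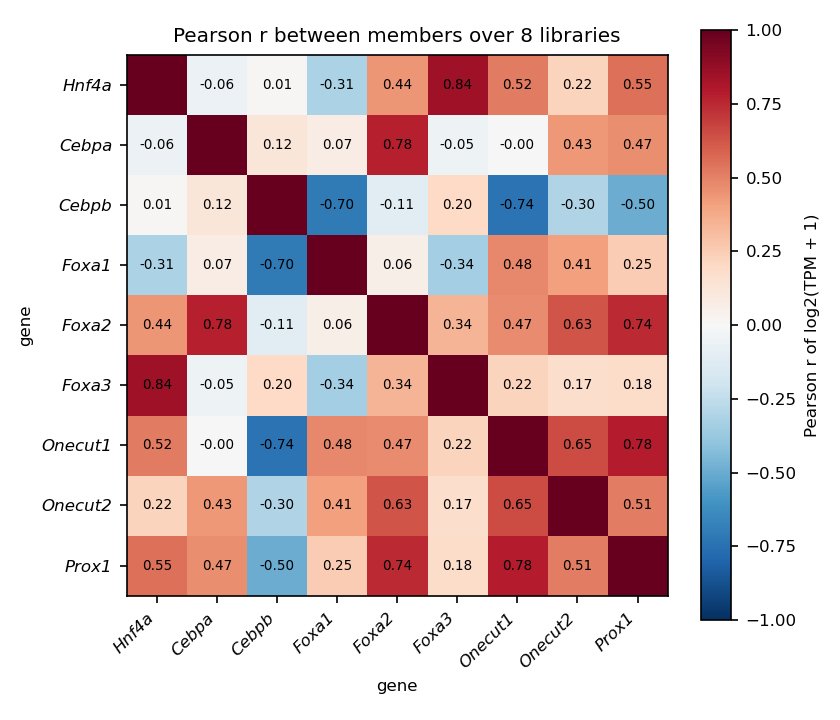
Pearson r of log2(TPM + 1) between each pair of transcription factors over the 8 libraries, red for positive and blue for negative values. The largest coefficients are Hnf4a with Foxa3 (0.84) and Onecut1 with Prox1 (0.78), and Cebpb is negative with Onecut1 (-0.74) and Foxa1 (-0.70).

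Against the level of other cell types, 54 relations were computed, each member with the mean log2(TPM + 1) of 6 gene lists, and none passed an adjusted p of 0.05 by either measure. Hepatocyte markers, 20 genes, summed to 137088 to 185223 TPM in Myc-labelled livers and 155833 to 199083 TPM in controls. Over all 8 libraries their level had r from -0.22 (Cebpb) to 0.50 (Cebpa) with the factors, and -0.05 with Onecut1. Without the 2 libraries farthest from the median of that list, r ran from -0.88 (Onecut1) to 0.30 (Cebpb). These coefficients therefore depended on 2 libraries. Hnf4a had r = -0.78 and rho = -0.57 with cholangiocyte markers (exact permutation p = 0.0157 and 0.151, adjusted 0.425 and 0.929). Without Myc-labelled replicate 3 and control replicate 2, where these markers were lowest and Hnf4a highest, r was -0.10, so the relation rested on 2 libraries. Of the 10 cholangiocyte markers 6 passed the filter, and the list summed to 115 to 963 TPM in Myc-labelled livers and 93.3 to 322 TPM in controls.

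Hnf4a had r = -0.76 and rho = -0.55 with stellate cell markers (exact permutation p = 0.0445 and 0.171, adjusted 0.802 and 0.929), and r = -0.57 without the 2 libraries farthest from the median of that list. Cebpb, which neutrophils also express, had r = 0.81 and rho = 0.67 with neutrophil markers (exact permutation p = 0.0157 and 0.0831, adjusted 0.425 and 0.929). Without Myc-labelled replicate 4 and control replicate 3 that r was 0.28. Neutrophil markers, 6 of 7 past the filter, summed to 24.3 to 153 TPM in Myc-labelled livers and 14.0 to 66.9 TPM in controls, and their part in the Cebpb values was not tested. Prox1 had r = 0.51 with the 2 lymphatic markers past the filter (rho = 0.38; exact permutation p = 0.2 and 0.36, adjusted 0.855 and 0.944), and Cebpb had r = 0.35 and rho = 0.40 with acute phase genes (exact permutation p = 0.394 and 0.327, adjusted 0.95 and 0.929).

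**Figure D5:**
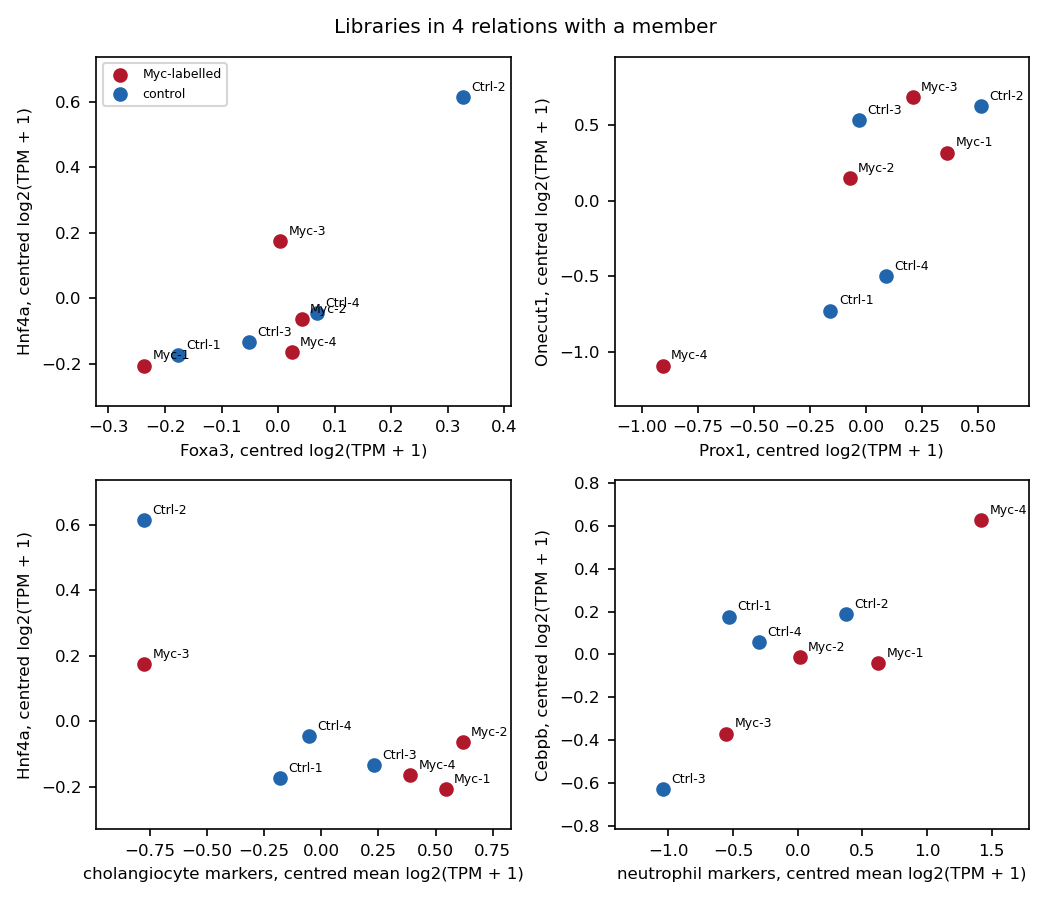
Each point is a library, red for Myc-labelled and blue for control, on centred log2(TPM + 1) scales: Hnf4a against Foxa3, Onecut1 against Prox1, Hnf4a against the mean of cholangiocyte markers and Cebpb against the mean of neutrophil markers. Control replicate 2 sits apart in both Hnf4a panels, and Myc-labelled replicate 4 in the Onecut1 and Cebpb panels.

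Other genes of the network gave 0 calls as well, read from the same limma fit. Of 20 further hepatocyte transcription factors and nuclear receptors, 7 were above and 13 below 0 with a median log2 difference of -0.06, against 0.04 over all genes. The smallest p in this list belonged to Nr1i3, the xenobiotic receptor CAR, at 115 ± 45.3 TPM in Myc-labelled livers and 160 ± 26.5 TPM in controls (SD, n = 4 each), which did not pass. The oxysterol receptor gene Nr1h3 stood at 56.0 ± 12.3 TPM in Myc-labelled livers and 73.4 ± 19.6 TPM in controls, and the repressor gene Nr0b2 at 47.9 ± 17.7 TPM and 36.5 ± 17.9 TPM in the same order.

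Among the members' relatives, 5 of 7 passed the filter, 2 above and 3 below 0. The stress gene Ddit3, a C/EBP family member that dimerizes with the others, stood at 13.2 ± 7.95 TPM in Myc-labelled livers and 6.12 ± 1.75 TPM in controls (limma unadjusted p = 0.0421, adjusted p = 0.9998). Cebpd, a further acute phase C/EBP gene, stood at 17.2 ± 2.99 TPM in Myc-labelled livers and 20.3 ± 4.93 TPM in controls. Onecut3 was listed at 0 in all libraries but Myc-labelled replicate 4, where it stood at 0.0466 TPM, and Hnf4g reached at most 0.588 TPM. Of 9 bile duct transcription factors 5 passed the filter, 4 above and 1 below 0, with Sox9 at 7.16 ± 3.99 TPM in Myc-labelled livers and 4.24 ± 1.81 TPM in controls. None of these passed the test.

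Genes the factors are known to serve were read in 3 lists that share members and a separate acute phase list, and 0 passed an adjusted p of 0.05. Of 18 genes served by HNF4A, 5 were above and 13 below 0 (median log2 difference -0.13); Apoc3, which encodes an inhibitor of triglyceride clearance, stood at 2350 ± 654 TPM in Myc-labelled livers and 3032 ± 353 TPM in controls. Of 7 genes served by C/EBP alpha, 2 were above and 5 below 0 (median -0.19), and the urea cycle gene Cps1 stood at 1296 ± 451 TPM in Myc-labelled livers and 1862 ± 298 TPM in controls (limma unadjusted p = 0.0396, adjusted p = 0.9998). Of 8 genes served by FOXA proteins, 5 were above and 3 below 0 (median 0.09). G6pc, of all 3 lists, encodes the last enzyme of glucose release and stood at 154 ± 90.9 TPM in Myc-labelled livers and 73.2 ± 84.7 TPM in controls. Of 15 acute phase genes 11 were above and 4 below 0 (median 0.12). Saa1 stood at 9588 ± 9663 TPM in Myc-labelled livers, where the SD was near the mean, and 5989 ± 4340 TPM in controls.

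For each member up to 2 genes most like it are given, by Pearson r of log2(TPM + 1) over the 8 libraries, among 8344 genes averaging 5 TPM or more. With so many genes and 8 libraries a high r is reached readily, so these are descriptions without a test. Hnf4a was most like the chemokine gene Cxcl13 (r = 0.94), which stood at 384 TPM in control replicate 2 and 86.5 TPM in Myc-labelled replicate 3 but at 1.88 to 14.3 TPM in the other 6 libraries, and like Bmper (0.94), which encodes a BMP-binding protein. Cebpa was most like Cdc42ep4 (0.97) and the lysosomal channel gene Mcoln1 (0.97). Cebpb was most like the splicing factor gene U2af1 (0.94) and Gas6 (0.93), the ligand of TAM receptors.

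Foxa2 was most like the chaperone gene Hspa2 (0.97) and Cish (0.95), a feedback inhibitor of STAT5 signals that stood at 7.15 TPM in Myc-labelled replicate 4 and 12.7 to 26.4 TPM elsewhere. Foxa1 was most like Gopc (0.94) and Rexo4 (0.93), and Foxa3 like the ganglioside enzyme gene B4galnt1 (0.91) and Tfip11 (0.89). Onecut1 was most like Cdc42bpg (0.97) and Fech (0.97), the last enzyme of haem synthesis, at 36.3 to 75.6 TPM. Onecut2 was most like Parn (0.95), and Prox1 like Abhd15 (0.98) and Zcchc24 (0.97).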

How the data were processed

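RNA from 8 livers, 4 per group, was measured with an mRNA library kit, per the labels' protocols. HISAT2, StringTie and the mm10 build are named, without versions, in the submitters' processing notes. TPM, FPKM and coverage (a signal not scaled for depth) were deposited by the authors, per the file headers. Repeated rows (10 to 15 per library) were summed; 98.3% of IDs occur in GENCODE M21, which gave overlaps.

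Genes averaging 1 TPM or more were tested on log2(TPM + 1) by limma 3.58.1 in R 4.3.3, with a trended, robust prior and two-sided p-values. The script was tested on simulated data. Permutations were exact (Python 3.11.15, scipy 1.17.1, numpy 2.4.6, pandas 2.3.3, matplotlib 3.10.9). The members and the 17 gene lists were chosen with earlier results of these data known. Named genes are all members, up to 4 per described list by smallest p, of which fewer are given, and 2 alike genes per member, a few of which are not reported here; Cebpd, Alb, Onecut3, Hnf4g, Saa1 and the overlapping genes were named after their values were seen. Beyond the word mice, the labels do not say how animals relate, so p-values measure the spread between these samples.

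The 10 lists for other cells and tissues gave 0 calls. Endothelial (0 of 8 above 0) and Kupffer markers (0 of 6) were below 0. Stellate (6 of 7), neutrophil (6 of 6), cholangiocyte (6 of 6) and red cell markers (3 of 3) lay above. Hepatocyte markers were 4 above and 16 below, and lymphatic 1 and 1. No lymphocyte or acinar marker passed the filter. Genes of a list are not independent within a library, so these counts are descriptions. Mean log2(TPM + 1) of neutrophil markers deviated from its mean over all libraries by 0.62, 0.02, -0.55 and 1.42 in Myc-labelled replicates 1 to 4. For cholangiocyte markers the deviations were 0.55, 0.62, -0.77 and 0.39.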

Additional observations from a re-analysis of the deposited data

Results flagged for a closer look

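Among 22 sets of 4 values examined, 2 held a library set apart from the other 3 by more than the 95% critical value of Dixon's gap ratio, where chance gives about 1 in 20. Hnf4a stood at 410.1 TPM in control replicate 2, with a gap of 0.873 of the group's range. Foxa3 stood at 33.2 TPM in Myc-labelled replicate 1, the low end of its group, with a gap of 0.853 of the range, although control replicate 1 was close to it at 34.7 TPM. Control replicate 2 also had the highest Foxa3 and Prox1, the highest Cxcl13 (384 TPM) and the lowest summed cholangiocyte markers of the 8 libraries (93.3 TPM). The part of these in the Hnf4a value was not tested.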

How the results depend on the processing

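No member passed an adjusted p of 0.05 in any of 19 other settings (lowest 0.896). For the setting with coverage in place of TPM, the deposited coverage was first scaled to the same sum in every library. Onecut1 fell below the filter at a mean of at least 5 TPM and by that scaled coverage, so it was tested in 17 of the 19. Of 169 member values 147 kept their sign. The other 22 changed sign, 7 of them for Onecut1, none past the threshold. With quantile normalization the log2 difference of Onecut1 was -0.013; with array weights it was -0.046, that of Cebpa 0.037, that of Foxa2 0.20 and that of Foxa1 0.0097, against 0.24. Leaving out 1 library gave -0.21 to 0.053 for Hnf4a, -0.27 to 0.026 for Cebpa, -0.090 to 0.24 for Cebpb, 0.07 to 0.43 for Foxa1, -0.25 to 0.16 for Foxa2, -0.16 to 0.011 for Foxa3, -0.21 to 0.40 for Onecut1, -0.030 to 0.14 for Onecut2 and -0.36 to 0.063 for Prox1. The Cebpb to Cebpa log2 ratio difference ranged from -0.093 to 0.40 and the Foxa3 share difference from -5.43 to 1.21 percentage points. Array weights called 1 gene, no member. Over FPKM 1 pair, Hnf4a with Foxa3, passed (r = 0.84, adjusted exact permutation p = 0.0357); the range over its settings was 0.0357 to 0.681. The cause was not tested. Genes at an unadjusted p under 0.05 were 243, against 643 with no filter, 135 at a mean of at least 5 TPM, 587 with array weights, 646 once Myc-labelled replicate 3 was left out and 152 once replicate 4 was. Alternatives chosen after seeing the data were coverage in place of TPM, with 0 genes and 0 pairs past the threshold, and, for the pairs alone, leaving out both Myc-labelled replicate 4 and control replicate 2, with 0 pairs past it. Same-numbered libraries deviated together by -0.058 to 0.128, not over 0.1 in every pair, so the numbers were not taken as pairs; with the replicate block 0 genes passed and the Hnf4a difference was -0.13. TPM keeps no read counts, so counting error is not given, also for Onecut1, the lowest member, whose deposited coverage was 0.333 to 2.34.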
